A study of Homo sapiens with 12 samples.

Results

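The liver X receptors (LXRs) and a set of transporter, apolipoprotein and LXR target genes were followed in human THP-1 macrophages given a phthalate monoester. The group was named by gene symbol and holds 10 of the 58907 genes in the deposited count table. They are the receptors NR1H3 and NR1H2, the transporters ABCA1, ABCG1 and ABCG2, the apolipoproteins APOE and APOC1, and the LXR targets MYLIP, LPCAT3 and SREBF1. All 10 passed the filter on low counts, ABCG2 only through M2 MCHP, the group where it was highest. Every group used the line PPRE-eGEP-THP-1, made from the human monocytic leukaemia line THP-1 and labelled as monocyte, and the labels do not expand PPRE. All cells were exposed for 48 h to 25 ng/mL of the phorbol ester PMA, which turns THP-1 monocytes into macrophages, and then rested for 24 h. M1 groups then received lipopolysaccharide (100 ng/mL) with interferon gamma (20 ng/mL) for 24 h, and M2 groups received interleukin 4 and interleukin 13 (20 ng/mL each) for 24 h. During those 24 h the cells also received 100 µM monocyclohexyl phthalate (MCHP) or the solvent DMSO. Each of the 4 groups (M1 DMSO, M1 MCHP, M2 DMSO and M2 MCHP) has 3 libraries, described as biological replicates of 1 cell line, so that the spread between them is that of cultures of this line.

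LXR alpha (NR1H3) and LXR beta (NR1H2) are nuclear receptors that pair with retinoid X receptors on DNA and are activated by oxysterols and desmosterol, which accumulate when a cell holds excess cholesterol. In macrophages they are known for inducing the membrane pumps ABCA1 and ABCG1, which pass cholesterol to apolipoprotein A-I and to high-density lipoprotein, and for inducing APOE, a secreted acceptor of lipid. Other targets limit cholesterol uptake (MYLIP), remodel phospholipids (LPCAT3) and drive fatty acid synthesis (SREBF1).

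Libraries held 14352202 to 16871233 gene counts, and levels are given as CPM, the counts of a gene relative to its library's total after TMM scaling. M2 DMSO replicate 1 stood apart: its log2 deviations from the other libraries of its group had an SD of 0.33 over genes, against 0.144 to 0.206 in the other 11 libraries. Relative to the mean of M2 DMSO replicates 2 and 3, its log2 level was lower by 0.53 for SREBF1, 0.38 for NR1H2, 0.31 for APOE and 0.31 for ABCA1 and higher by 0.47 for ABCG1. The other 5 members lay between -0.11 and 0.13, and several M2 results are therefore also given without this replicate. Of 10 macrophage markers, 9 had group means of 7.49 to 4866 CPM, whereas CD68 had 0.0688 to 0.385 CPM. The summed level of 10 M1 markers was 11410 to 12130 CPM in M1 libraries and 4803 to 5813 CPM in M2 libraries. The sum of 10 M2 markers was 2178 to 2397 CPM in M1 and 8817 to 11470 CPM in M2, most of it TGM2, with MRC1, CCL17 and MAOA at or near 0. CLEC10A went the other way, with means of 22.3 (DMSO) and 18.1 CPM (MCHP) in M1 and 1.43 and 0.708 CPM in M2. Of the 26 markers of adipocytes, hepatocytes, fibroblasts, epithelium and lymphocytes, LPL, SERPINA1, COL1A1 and NCAM1 had group means of 27.6 to 689 CPM, and the highest of the others, CD79A, reached 1.00 CPM. Within M2 the M2 marker sum was 8817 to 11190 CPM with DMSO and 11280 to 11470 CPM with MCHP, and its part in the M2 results was not tested. With MCHP the M2 means of TGM2 (9391 to 10050 CPM) and CCL22 (742 to 1214 CPM) were higher. Those of CD209 (161 to 107 CPM), ALOX15 (11.8 to 7.25 CPM), CCL13 and CLEC10A were lower. These are bulk samples, so that fewer cells of a kind and less RNA per cell cannot be told apart.

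MCHP raised NR1H3 in both polarization states and, in M2, also ABCA1 and ABCG2. In M2, 3 of the 10 genes passed the threshold, an adjusted p under 0.05 in edgeR's quasi-likelihood test with Benjamini-Hochberg adjustment over 15252 genes, and all 3 were higher with MCHP. ABCG2 was tested only because M2 MCHP brought it past the filter, so its call adds no support, and of the other 9 genes 2 passed. Among all tested genes 5.11% passed in either direction and 2.92% were higher. In M1, NR1H3 alone passed, where 0.0852% of all genes passed and 0.0721% were higher. The median log2 fold change of the 9 genes other than ABCG2 was 0.04 in M2 and 0.02 in M1, against 0.00 for all tested genes in both. Scaling by library size alone turned the M2 split of all genes from 446 higher and 333 lower to 306 higher and 465 lower. Under it NR1H3 (0.81) and ABCA1 (0.31) still rose and passed. ABCG2 also rose there, which adds no support for the reason given. The remaining 7 genes in M2 had adjusted p of 0.378 to 0.996, which does not show that they did not change.

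**Figure D1:**
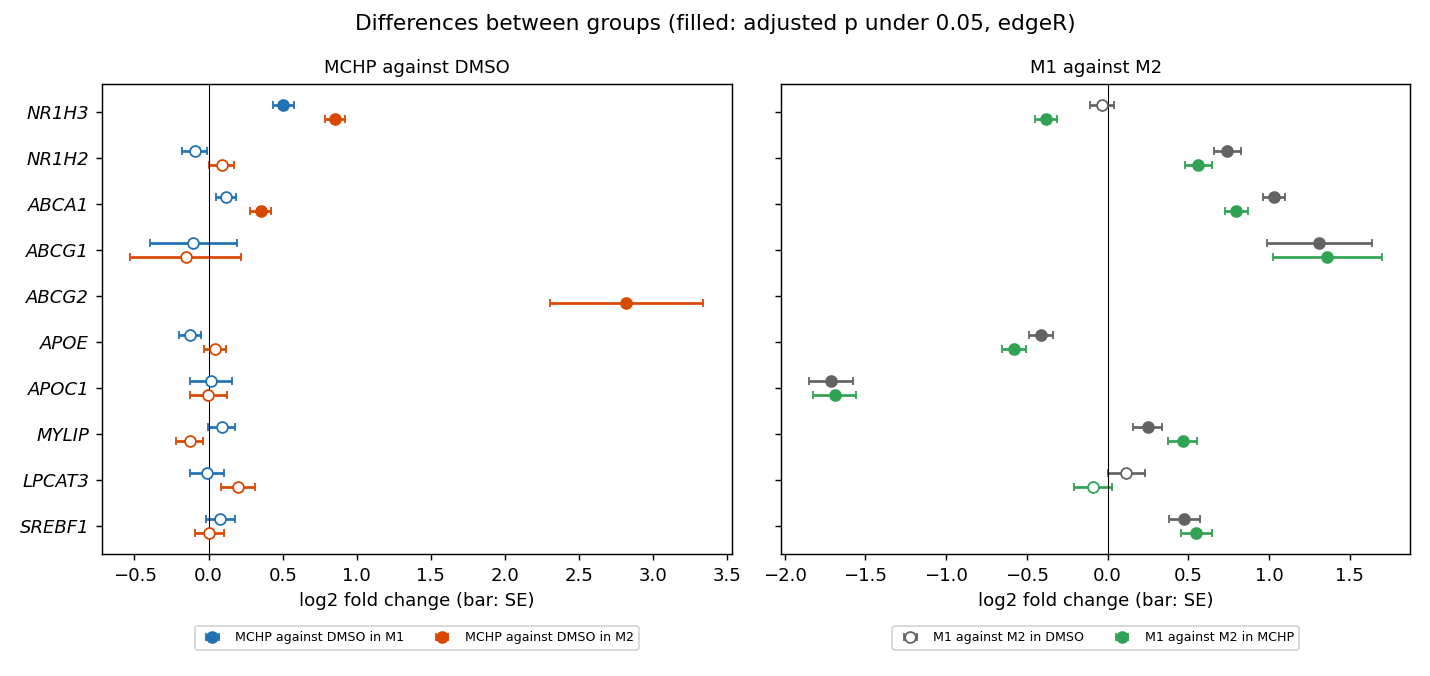
Log2 fold changes with standard errors for the 10 genes, MCHP against DMSO on the left (blue M1, orange M2) and M1 against M2 on the right (grey DMSO, green MCHP); filled points passed an adjusted p of 0.05. NR1H3 is filled in both states at 0.50 and 0.85, ABCA1 and ABCG2 only in M2, and ABCG2 is shown only where both groups held counts enough for a fold.

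NR1H3 (ENSG00000025434, chr11:47248300-47269032, + strand) encodes LXR alpha, the form found mainly in liver, gut, fat and macrophages. In M2 DMSO it stood at 30.1, 30.1 and 28.3 CPM and in M2 MCHP at 54.4, 53.7 and 51.8 CPM. In M1 DMSO it stood at 29.7, 27.2 and 29.6 CPM and in M1 MCHP at 40.1, 41.4 and 41.2 CPM. Every MCHP library was above every DMSO library, and the 6 DMSO libraries of both states shared 1 narrow range. The rise was 1.81-fold in M2 (log2 0.85 ± 0.07 SE, edgeR adjusted p = 7.64e-07) and 1.42-fold in M1 (0.50 ± 0.07, edgeR adjusted p = 0.00775). The M2 rise was 0.87 without M2 DMSO replicate 1. The M1 rise kept its size, 0.47 to 0.52, but lost its call when any of 5 of the 6 M1 libraries was left out (adjusted p 0.0508 to 0.106), all except M1 DMSO replicate 1. The first 607 bases of the NR1H3 model overlap ACP2 on the opposite strand, which stood at a mean of 63.6 CPM in M1 DMSO, 69.9 in M1 MCHP, 59.95 in M2 DMSO and 69.9 in M2 MCHP; the part of its reads in the NR1H3 counts was not tested.

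NR1H2 (ENSG00000131408, chr19:50329653-50382982, + strand) encodes LXR beta, which is found in most tissues. In M2 DMSO its values were 83.5, 108 and 109 CPM and in M2 MCHP 111, 103 and 106 CPM, groups that overlap. In M1 DMSO it read 171, 169 and 163 CPM and in M1 MCHP 165, 160 and 146 CPM. Neither difference passed (0.09 ± 0.08, edgeR adjusted p = 0.636 in M2, and -0.09 ± 0.08, edgeR adjusted p = 0.998 in M1), and the M2 value was -0.03 without M2 DMSO replicate 1.

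Since both receptors bind the same kind of DNA site, their balance was computed as the share of NR1H3 in the sum of both genes' CPM per kilobase of gene model. The share was 12.5%, 11.8% and 13.1% in M1 DMSO and 16.7%, 17.7% and 18.9% in M1 MCHP. It was 23.0%, 18.7% and 17.7% in M2 DMSO and 28.9%, 30.2% and 28.8% in M2 MCHP. The groups compared did not overlap: MCHP was above DMSO by 5.31 percentage points in M1 and 9.49 in M2, and M2 was above M1 with either treatment. In DMSO mean NR1H3 was similar in M1 and M2 (28.8 and 29.5 CPM), whereas mean NR1H2 was lower in M2 (168 and 100 CPM). The exact two-sided permutation test gave p = 0.1 for each of the 4 pairs (0.1 after adjustment over the 4), the smallest p that 3 against 3 libraries allow. Without M2 DMSO replicate 1, the highest of its group, the M2 difference was 11.1 points.

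**Figure D2:**
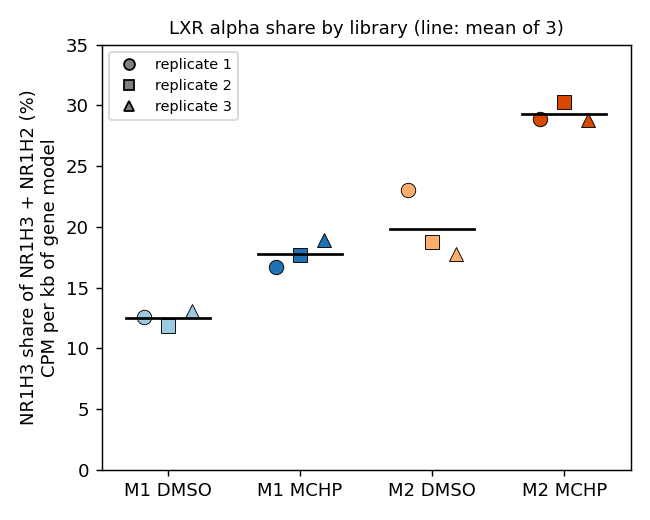
Share of NR1H3 in the sum of NR1H3 and NR1H2, each as CPM per kilobase of gene model, in percent for each of the 12 libraries (marker shape gives the replicate, the line the mean of 3). Means rise from 12.5% in M1 DMSO to 29.3% in M2 MCHP, and the high point of M2 DMSO at 23.0% is replicate 1.

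ABCA1 (ENSG00000165029, chr9:104781002-104928237, − strand) encodes the pump that loads cholesterol and phospholipid onto lipid-poor apolipoprotein A-I, and it is a well-known direct LXR target. Its promoter is shown because it was the only one of the promoters searched that held a match to the LXR element, a pair of AGGTCA words on 1 strand with 4 bases between them (DR4, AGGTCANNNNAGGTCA). Both strands of the 250 bases before each RefSeq gene start (GRCh38.p14) were searched, allowing 2 mismatches in the 12 fixed letters, and 9 of the 10 genes had an entry (not ABCG1). The match spans chr9:104928209-104928224, 69 to 54 bases before the RefSeq start and inside the longer gene model of the count table. The 30 bases of chr9:104928202-104928231 are printed on the strand of the gene, with the match in capitals; read on the other strand it is AGGTTACTATCGGTCA.
ABCA1: caggcttTGACCGATAGTAACCTctgcgct
Of all 35116 promoters, 714 (2.03%) held such a match, and 5 held it with no mismatch. The element of peroxisome proliferator-activated receptors, the same words with 1 base between them (DR1, AGGTCANAGGTCA), matched in none of the 9 and in 903 of all promoters (2.57%). A match is a likeness of letters, and binding was not measured.

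In M2 DMSO, ABCA1 stood at 274, 348 and 332 CPM, and in M2 MCHP at 401, 402 and 415 CPM. In M1 DMSO it stood at 658, 662 and 634 CPM, and in M1 MCHP at 702, 721 and 697 CPM. MCHP libraries were above DMSO libraries in both states without overlap, and the lowest value was that of M2 DMSO replicate 1. ABCA1 rose 1.28-fold in M2 (0.35 ± 0.07, edgeR adjusted p = 0.00522). Leaving that library out gave a rise of 0.26 ± 0.04 (adjusted p = 0.000112). When only the 6 M2 libraries were fitted the rise was 0.34 and did not pass (adjusted p = 0.114). In M1 the difference was 0.12 ± 0.07 and did not pass (adjusted p = 0.98), while fitting only the 6 M1 libraries gave 0.11 with an adjusted p of 0.0474.

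ABCG2 (ENSG00000118777, chr4:88090264-88231322, − strand) encodes a pump for drugs, urate and porphyrins that is a relative of ABCG1. It was close to the detection limit: 4, 1 and 6 counts in M2 DMSO, and 17, 28 and 30 counts in M2 MCHP. All M2 MCHP libraries were above all M2 DMSO libraries. The count rate was 7.26 times higher with MCHP (exact 95% interval 3.84 to 15.2, covering counting error only), and the fitted log2 fold change was 2.82 ± 0.52 (edgeR adjusted p = 0.00392). Leaving out M2 DMSO replicate 1 gave 2.93 ± 0.63 (adjusted p = 0.00247). ABCG2 passed the filter only through M2 MCHP, so these adjusted p add no support. DESeq2 gave no adjusted p for ABCG2 here, so its count of the 10 genes in M2 was 2. In M1 there was 1 count in the 3 MCHP libraries and 0 in the 3 DMSO libraries, too few for a fold.

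ABCG1 (ENSG00000160179, chr21:42199689-42297244, + strand) encodes the pump that passes cholesterol to mature high-density lipoprotein. Its counts were 24, 18 and 15 in M2 DMSO and 9, 15 and 24 in M2 MCHP. They were 41, 39 and 46 in M1 DMSO and 56, 34 and 29 in M1 MCHP. MCHP and DMSO libraries overlapped in both states, with differences of -0.15 ± 0.37 in M2 and -0.10 ± 0.30 in M1 (edgeR adjusted p = 0.88 and 0.998). At these counts a difference of the size seen for ABCA1 was not detectable.

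APOE (ENSG00000130203, chr19:44905754-44909393, + strand) encodes the apolipoprotein that macrophages secrete to carry cholesterol away. It stood at 1020, 1245 and 1291 CPM in M2 DMSO and at 1274, 1261 and 1131 CPM in M2 MCHP. In M1 DMSO it stood at 890, 916 and 866 CPM and in M1 MCHP at 823, 836 and 791 CPM. The M2 groups overlapped (0.04 ± 0.07, edgeR adjusted p = 0.809). In M1 every MCHP library was below every DMSO library, but the difference of -0.13 ± 0.07 did not pass (edgeR adjusted p = 0.978), whereas fitting only the 6 M1 libraries gave -0.13 with an adjusted p of 0.0201.

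APOC1 (ENSG00000130208, chr19:44914247-44919349, + strand), the neighbour of APOE in the same apolipoprotein cluster, encodes a small lipoprotein component that slows lipoprotein uptake. M2 DMSO libraries held 91.3, 88.3 and 90.9 CPM and M2 MCHP libraries 95.2, 104 and 70.0 CPM, the last, replicate 3, being the lowest of the 6. M1 DMSO libraries held 25.4, 34.4 and 22.8 CPM and M1 MCHP libraries 27.2, 26.7 and 29.6 CPM. MCHP and DMSO differed by -0.0028 ± 0.125 in M2 and 0.02 ± 0.14 in M1 (edgeR adjusted p = 0.996 and 0.998), and by 0.14 in M2 without M2 MCHP replicate 3. The pseudogene APOC1P1, a near copy, held 81 counts in all libraries together against 11316 for APOC1.

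MYLIP (ENSG00000007944, chr6:16129125-16148248, + strand) encodes a ubiquitin ligase, also called IDOL, that sends lipoprotein receptors for breakdown. It read 20.3, 22.5 and 21.3 CPM in M2 DMSO and 20.7, 20.0 and 17.9 CPM in M2 MCHP. In M1 DMSO it read 27.5, 24.4 and 24.2 CPM and in M1 MCHP 27.0, 25.3 and 28.6 CPM. Groups with and without MCHP overlapped in both states, with differences of -0.13 ± 0.09 in M2 and 0.09 ± 0.09 in M1 (edgeR adjusted p = 0.503 and 0.998).

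LPCAT3 (ENSG00000111684, chr12:6976186-7018510, − strand) encodes the enzyme that places polyunsaturated fatty acids in membrane phospholipids. M2 DMSO libraries held 11.7, 12.5 and 12.4 CPM and M2 MCHP libraries 14.9, 13.99 and 13.1 CPM, without overlap. M1 DMSO libraries held 14.8, 11.1 and 13.9 CPM and M1 MCHP libraries 13.8, 13.2 and 12.5 CPM, which overlap. The difference was 0.20 ± 0.11 in M2 (edgeR adjusted p = 0.378) and -0.01 ± 0.12 in M1 (edgeR adjusted p = 1), and neither passed. Its model overlaps C1S on the opposite strand over 30252 bases, and C1S stood at 108 to 113 CPM in M1 but 1.25 to 1.72 CPM in M2. EMG1, also on the opposite strand, overlaps the LPCAT3 model over 21243 bases. The mean of EMG1 was 20.2 CPM in M1 DMSO, 21.4 in M1 MCHP, 16.7 in M2 DMSO and 18.8 in M2 MCHP. The strand setting of the counting is not given in the sources used here. The part of C1S and EMG1 reads in the LPCAT3 counts was not tested.

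SREBF1 (ENSG00000072310, chr17:17810399-17837002, − strand) encodes SREBP-1, the transcription factor of fatty acid synthesis through which LXRs are known to act on lipogenesis. M2 DMSO libraries held 151, 219 and 218 CPM and M2 MCHP libraries 198, 197 and 195 CPM. M1 DMSO libraries held 285, 264 and 269 CPM and M1 MCHP libraries 300.0, 281 and 284 CPM. In M2 the 3 MCHP libraries lay between M2 DMSO replicate 1 and the other DMSO libraries, and the difference was 0.0044 ± 0.098 (edgeR adjusted p = 0.99). With that replicate left out, SREBF1 fell with MCHP (-0.15 ± 0.05, adjusted p = 0.0344), so that 4 of the 10 genes passed where 11.2% of all genes did. ABCG2, tested only through M2 MCHP, is among the 4 and adds no support. In M1 the difference was 0.08 ± 0.10 (edgeR adjusted p = 0.998).

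**Figure D3:**
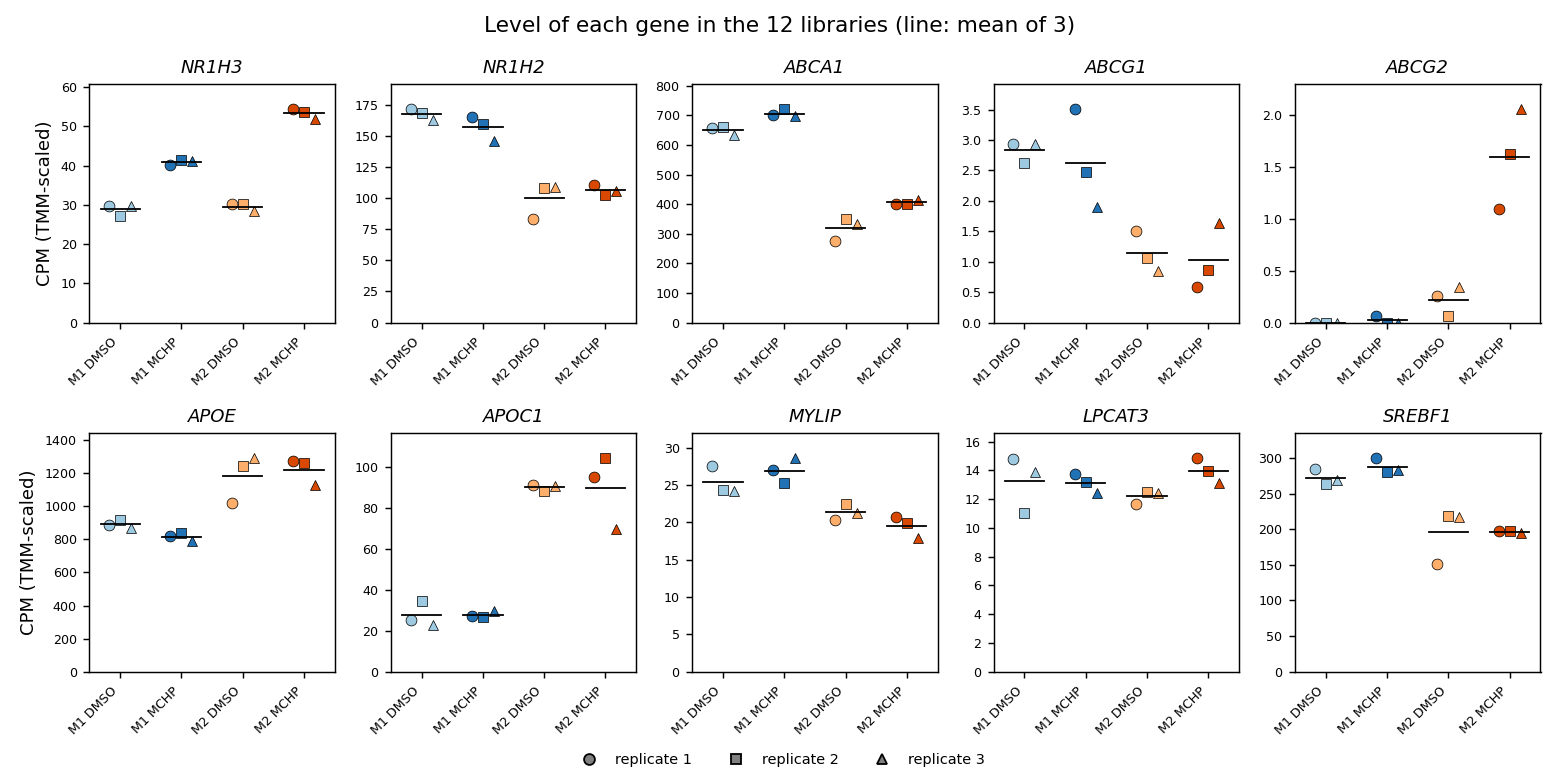
TMM-scaled CPM of the 10 genes in each of the 12 libraries, each gene on its own axis from 0, with marker shape giving the replicate and the line the mean of 3. NR1H3 shows a DMSO range common to both states and a step up with MCHP, and ABCG2 is at or near 0 outside M2 MCHP. Among the M2 libraries, M2 DMSO replicate 1 (circle) is the low point for NR1H2, ABCA1, APOE and SREBF1.

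The responses of M1 and M2 to MCHP were set against each other as an interaction in the same fit. None of the 10 genes passed in edgeR, where 0.164% of all genes did, and DESeq2 and limma-voom also called 0. At an unadjusted p under 0.05 there were 2, NR1H3 and ABCA1, where 1349 of the 15252 genes (8.84%) were under it. The M1 response minus the M2 response was -0.35 ± 0.10 for NR1H3 (edgeR adjusted p = 0.252) and -0.23 ± 0.10 for ABCA1 (edgeR adjusted p = 0.491). When M2 DMSO replicate 1 was left out, 2 of the 10 genes passed where 2.46% of all genes did: NR1H3 at -0.36 ± 0.10 (adjusted p = 0.0377) and SREBF1 at 0.23 ± 0.06 (adjusted p = 0.0423). ABCA1 was then nearer 0, at -0.14 ± 0.06 (edgeR adjusted p = 0.216). The higher NR1H3 response in M2 therefore passed or did not according to that 1 DMSO library, although its size hardly moved. Each response enters this difference, so the values are not independent of those above.

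Polarization separated the genes more widely than MCHP did. In DMSO, 8 of the 10 differed between M1 and M2, where 42.5% of all genes did: 5 were higher in M1 (21.6% of all genes) and 3 were lower (20.9%). With MCHP, 9 of the 10 differed, where 44.6% of all genes did, 5 higher in M1 (21.9%) and 4 lower (22.7%). ABCG2 is among both counts and was tested only through M2 MCHP. Of the other 9 genes 7 passed in DMSO and 8 with MCHP, and 6 passed in DMSO when only the DMSO libraries were fitted, where ABCG2 was not tested. The median log2 difference of the 9, M1 minus M2, was 0.25 in DMSO and 0.46 with MCHP, against 0.00 for all genes in both. Scaling by library size alone shifted the median of all genes to -0.13 in DMSO and -0.09 with MCHP, with 34.6% and 38.2% of calls higher in M1 against 50.8% and 49.1% with TMM factors. Under it the called genes kept their directions, and MYLIP in DMSO was not called. The M1 and M2 marker sums given above differ between the same groups. The DMSO and MCHP comparisons use different libraries.

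Higher in M1 were the receptor NR1H2, the exporters ABCA1 and ABCG1, and the targets SREBF1 and MYLIP. ABCA1 was 2.05-fold higher in M1 in DMSO (1.03 ± 0.07, edgeR adjusted p = 5.42e-10) and 1.74-fold higher with MCHP (0.80 ± 0.07, edgeR adjusted p = 1.84e-08). ABCG1 was higher by 1.31 ± 0.33 and 1.36 ± 0.34, and its lowest M1 library, at 1.90 CPM, was above its highest M2 library, at 1.64 CPM. NR1H2 was higher by 0.74 ± 0.08 and 0.56 ± 0.08, and SREBF1 by 0.48 ± 0.10 and 0.55 ± 0.10, with no overlap of M1 and M2 libraries in either treatment. Without M2 DMSO replicate 1 the DMSO difference of SREBF1 was 0.32 ± 0.05, and it still passed (adjusted p = 1.33e-06). The DMSO differences of ABCA1 (0.94 ± 0.04), NR1H2 (0.63 ± 0.05) and ABCG1 (1.56 ± 0.36) also still passed without that library. MYLIP was higher in M1 by 0.25 ± 0.09 in DMSO (edgeR adjusted p = 0.0364) and 0.46 ± 0.09 with MCHP (edgeR adjusted p = 0.000433). The DMSO call of MYLIP was lost in 7 of 13 alternatives, among them DESeq2 (0.0621), without M1 DMSO replicate 1 (0.168), without M2 DMSO replicate 1 (0.0615) and without M2 DMSO replicate 3 (0.0742).

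Lower in M1 were both apolipoproteins, and ABCG2 had fewer counts there. APOC1 was 3.28-fold lower in M1 in DMSO (-1.71 ± 0.14, edgeR adjusted p = 5.36e-09) and 3.23-fold lower with MCHP (-1.69 ± 0.14, edgeR adjusted p = 6.1e-09). The highest M1 library, at 34.4 CPM, held less APOC1 than the lowest M2 library, at 70.0 CPM. APOE was lower in DMSO (-0.41 ± 0.07) and with MCHP (-0.58 ± 0.07, edgeR adjusted p = 0.000151 and 2.79e-06). Without M2 DMSO replicate 1 its DMSO difference was -0.51 ± 0.05 and still passed. ABCG2 had 0 counts in M1 DMSO and 11 in M2 DMSO, a ratio of 0 (exact 95% interval 0 to 0.451). Against a floor of 3 counts over the group, it was 3.24-fold lower in M1. With MCHP it had 1 count in M1 and 75 in M2, a ratio of 0.0140 (exact 95% interval 0.00035 to 0.0806). ABCG2 passed the filter only through M2 MCHP, so these ratios are a description and add no support.

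NR1H3 passed between M1 and M2 with MCHP and not in DMSO. In DMSO its M1 and M2 libraries overlapped (-0.03 ± 0.07, edgeR adjusted p = 0.74), and with MCHP it was lower in M1 (-0.38 ± 0.07, edgeR adjusted p = 0.000159), with the M1 libraries at 40.1 to 41.4 CPM and the M2 libraries at 51.8 to 54.4 CPM. The test of that difference, the interaction given above, did not pass with all libraries (edgeR adjusted p = 0.252). LPCAT3 passed in neither treatment (0.12 ± 0.12 and -0.09 ± 0.12, edgeR adjusted p = 0.452 and 0.56).

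Per kilobase of gene model, the levels spanned a wide range. In M2 DMSO the order of mean CPM per kilobase was APOE (541), APOC1 (73.2), ABCA1 (28.0), NR1H2 (26.7), SREBF1 (24.4), MYLIP (7.04), NR1H3 (6.51), LPCAT3 (2.58), ABCG1 (0.187) and ABCG2 (0.0432). The ranges of ABCA1, NR1H2 and SREBF1 overlapped there, so their order is not resolved. In M1 DMSO, APOE again led (407), and ABCA1 (57.4), NR1H2 (44.7) and SREBF1 (34.0) came before APOC1 (22.4). In M2 MCHP, NR1H3 (11.8) was above MYLIP (6.44), the reverse of M2 DMSO, and neither pair of ranges overlapped. APOE was at the 99.5 to 99.7 percentile of tested genes in every group, ABCA1 at the 90.9 to 96.1, and ABCG1 at the 5.87 to 16.0.

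The surrounding pathway was read from 6 lists with 93 genes, of which 74 passed the filter on low counts. In M2, 11 of the 74 rose with MCHP and 2 fell, beside the 2.92% of all genes that were higher and 5.11% that passed in either direction. Without M2 DMSO replicate 1, 13 rose and 6 fell, where 11.2% of all genes passed. In M1 none passed in edgeR, with 9 at an unadjusted p under 0.05, where 817 of all 15252 genes (5.36%) were under it, and limma-voom also called 0 while DESeq2 called LPL (-0.33). Without M2 DMSO replicate 1, 4 passed in M1, where 1.02% of all genes did, among them SCD (0.17), ABCC3 (0.43) and LPL (-0.32), named after their values were seen.

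Among further LXR targets, 4 of 15 tested genes rose in M2 and 1 fell, where 2.92% of all genes rose and 5.11% passed in either direction. SCARB1, the receptor that exchanges cholesterol with high-density lipoprotein, rose from 63.6 to 104 CPM (0.70 ± 0.07, edgeR adjusted p = 1.91e-05). SCD, which makes monounsaturated fatty acids, rose from 1243 to 1709 CPM (0.46 ± 0.05), and TMEM135, a peroxisomal membrane protein, rose by 0.57 ± 0.12. The multidrug pump gene ABCC3, named after its values were seen, rose by 0.39 ± 0.10, and the growth factor gene VEGFA fell by 0.24 on the log2 scale. Without M2 DMSO replicate 1 the list had 4 higher and 3 lower, where 11.2% of all genes passed. The phospholipid transfer protein gene PLTP (-0.29, adjusted p = 0.00646) and the transcription factor gene MLXIPL (-0.46, adjusted p = 0.0152) then joined VEGFA, both named after their values were seen. The median of the 15 was -0.05. SCARB1 was also the 1 gene of the 74 whose response differed between states (-0.65 ± 0.11, edgeR adjusted p = 0.0193). DESeq2 also called SCD and NCEH1 there, and without M2 DMSO replicate 1 edgeR called 7 of the 74, where 2.46% of all genes were called. The 10 targets that failed the filter, ABCG5 and ABCG8 among them, held 0 to 32 counts each.

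The counts of the remaining lists stand beside 2.92% of all tested genes that rose in M2 and 5.11% that passed in either direction. Of 15 tested partners and coregulators of LXR, 3 rose in M2, among them the corepressor gene NCOR1 (0.25 ± 0.06) and the coactivator gene NCOA1 (0.29 ± 0.07). The median of this list was 0.09. In cholesterol storage and trafficking, 2 of 21 rose, SOAT1, which esterifies cholesterol for storage (0.34 ± 0.07), and NCEH1, which hydrolyses the ester (0.33 ± 0.06), with a median of 0.01. With M2 DMSO replicate 1 left out, 3 were higher and 2 lower in that list and 4 coregulators were higher, where 11.2% of all genes passed. The additions to the storage and trafficking list, also named after their values were seen, were OSBPL8 (0.20), NPC2 (-0.28) and GRAMD1A (-0.22). Of 9 MYLIP substrates and SREBP regulators, the lipoprotein receptor gene VLDLR rose (0.35 ± 0.06, median of the list 0.07). Of 6 enzymes that make or remove LXR ligands, CYP11A1, the side-chain cleavage enzyme of steroid synthesis, rose from 2.13 to 3.95 CPM (0.89 ± 0.24, edgeR adjusted p = 0.0355, median of the list 0.06), and it did not pass in DESeq2 (adjusted p = 0.0593). Of 8 phospholipid remodelling genes, LPCAT2 fell by 0.27 on the log2 scale (edgeR adjusted p = 0.0497, median of the list -0.08), and it did not pass in limma-voom (adjusted p = 0.053).

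**Figure D4:**
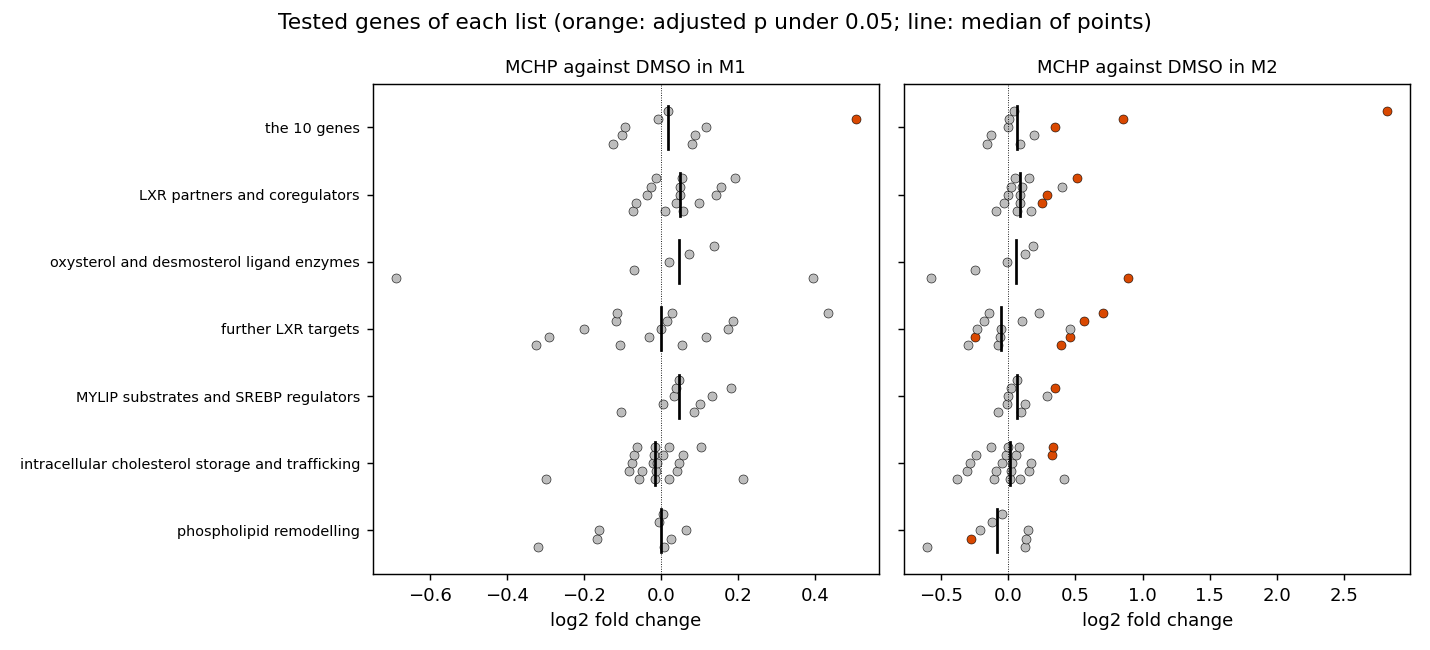
Log2 fold change of MCHP against DMSO for each tested gene of the 10 and of the 6 surrounding lists, in M1 (left) and M2 (right), with called genes in orange and the median of the points as a line; ABCG2 is left out in M1. The horizontal scales differ: in M1 only NR1H3 is orange, and in M2 called genes lie between -0.27 and 2.82 while the medians stay close to 0.

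Between M1 and M2 in DMSO, 48 of the 74 genes differed, 25 higher and 23 lower in M1, beside 42.5% of all genes. Among further LXR targets, 4 were higher and 7 lower of 15: IL18BP, a decoy for interleukin 18, was higher in M1 (132 against 5.69 CPM), and LPL (38.0 against 582 CPM), SCARB1 (30.96 against 63.6 CPM) and VEGFA (334 against 570 CPM) were lower. Of the substrates of MYLIP, LRP8 (-1.75 ± 0.08) and VLDLR (-0.85 ± 0.06) were lower in M1. Of the 6 ligand enzymes, 4 were lower in M1 and none higher, among them CYP11A1 (-1.70 ± 0.31), EBP (-0.37 ± 0.08) and CYP27A1 (-1.46 ± 0.41). In storage and trafficking, 9 were higher and 6 lower of 21, with the lysosomal lipase gene LIPA (-1.45 ± 0.07), the lysosomal cholesterol exporter gene NPC1 (-0.84 ± 0.05) and OSBPL1A (-1.75 ± 0.11) lower and the sterol transporter gene GRAMD1B higher (1.72 ± 0.12). Coregulators were higher in 7 and lower in 2 of 15, led by NCOA2 (0.73 ± 0.07) and NCOA1 (0.65 ± 0.07). In phospholipid remodelling, 4 of 8 were higher, led by LPCAT2 (1.38 ± 0.07), and PLA2G15 was lower (-0.65 ± 0.08).

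The genes whose levels followed 4 of the members most closely over the 12 libraries were read from 9604 genes with a mean of at least 5 CPM, by Pearson correlation of log2 CPM. They are a description, since the libraries fall into M1 and M2 and share that split. Closest to NR1H3 were SCD (0.93), TLR4 (0.93) and PPP1R15B (0.92), which like NR1H3 were highest in M2 MCHP. Closest to ABCA1 were DUSP1 (0.99), ST3GAL1 (0.99) and AGPAT3 (0.99). Closest to ABCG1 were SIN3A (0.97), CCNJ (0.96) and PIGA (0.96), and closest to APOE were PPP5C (0.99), EBP (0.98) and RPLP1 (0.98).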

How the data were processed

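Polyadenylated RNA of 12 libraries was analysed from the deposited table of raw counts per gene, whole numbers with no normalization, which per the file headers also gives gene positions and gene model lengths. Without saying what each was used for, the submitters' processing notes list the tools DESeq2 1.20.0, featureCounts 1.5.0-p3, StringTie 1.3.3b, HISAT2 2.0.5 and fastp, and the build hg38. No strand setting, batch or date is given in the sources used here, so where genes overlap on opposite strands their reads could not be assigned to 1 of them. Coordinates are those of the table.

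The fit used edgeR 4.0.16 in R 4.3.3: filterByExpr over the 4 groups (15252 genes, at least 99.82% of each library's counts), TMM factors, 1 mean per group over all 12 libraries (8 residual degrees of freedom), the quasi-likelihood F-test (two-sided) and Benjamini-Hochberg adjustment over genes with a threshold of 0.05. Standard errors are the log2 fold change divided by the root of F. A group with no count was given a floor of 3 counts. Intervals and floors cover counting error only. Depth was 14352202 to 16871233 counts per library. The steps were tested on simulated counts.

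The members, lists and tests were chosen with earlier results of these data known. All 10 members are named. From each list up to 4 called genes with the smallest p are named, as well as the 3 protein-coding genes most like each of NR1H3, ABCA1, ABCG1 and APOE, and exceptions are marked in the text. Some listed genes are not reported here by name. Comparisons that share a group are not independent.

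Alternatives were a replicate block, no low-count filter, scaling by DESeq2 size factors or by library size alone, limma-voom (limma 3.58.1), DESeq2 1.42.0, fits restricted to the groups compared, and fits that left out each library in turn. List counts without M2 DMSO replicate 1 and by the other tools were added after seeing the data. Same-numbered libraries of different groups deviated from their group means with correlations of -0.0478 to 0.0385 and were not treated as pairs.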

Additional observations from a re-analysis of the deposited data

How the results depend on the processing

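Calls of NR1H3, ABCA1 and ABCG2 in M2 and of NR1H3 in M1 kept their direction in every alternative that gave a value. ABCG2 passed the filter only through M2 MCHP, where it was highest, so its kept direction adds no support. It is among the M2 member counts below. The count of all genes called in M1 was 13, and it was 76 without the filter, 57 in DESeq2, 295 in the fit of the M1 libraries only and 5 with the replicate block; the count of members there was 1, and 3 in the M1 libraries only. In M2 the count of 779 became 183 in the M2 libraries only. For the difference of responses, 25 became 170 without the filter and 95 in DESeq2. Leaving out 1 library gave 1 to 159 genes and 0 to 1 members in M1, 383 to 1747 genes and 3 to 4 members in M2, and 5 to 385 genes and 0 to 2 members for the difference; the highest count of genes in each came without M2 DMSO replicate 1. The cause was not tested. The replicate block changed no call of a member, and for the NR1H3 share a block cannot alter a difference of means in this balanced design, so it is no check there. Not divided by length, the share difference of M1 minus M2 under MCHP was -12.7 points in place of -11.5. Signs that reversed belong to differences near 0: LPCAT3 in M1 with limma-voom (0.00177), SREBF1 in M2 by library size (-0.0371) and in the M2 libraries only (-0.00269), and LPCAT3 between states in DMSO by library size (-0.0122). Leaving out 1 library also turned the sign of uncalled members, whose log2 fold changes then ranged as follows. In M1 these were ABCG1 (-0.375 to 0.0877), APOC1 (-0.102 to 0.21) and LPCAT3 (-0.122 to 0.077). In M2 they were ABCG1 (-0.637 to 0.125), APOC1 (-0.124 to 0.138), NR1H2 (-0.0267 to 0.152), APOE (-0.0521 to 0.112) and SREBF1 (-0.15 to 0.0931); SREBF1 passed at -0.15 without M2 DMSO replicate 1. For the difference of responses they were ABCG1 (-0.227 to 0.531), APOC1 (-0.123 to 0.212) and SREBF1 (-0.0127 to 0.23), and between states in DMSO it was NR1H3 (-0.0631 to 0.00675). ABCG1 and ABCG2 rest on few counts, which limits what depth can show for them.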
